A study of Mus musculus with 11 samples.

Results

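The 32 macrophage and major histocompatibility complex (MHC) class II genes described here were selected by gene symbol from a deposited table of 56941 mouse genes, and all 32 symbols were found. They form 7 groups by role. The first holds 6 membrane and actin genes, pan-leukocyte except for Aif1. Another holds the myeloid transcription factor PU.1 with the receptor for macrophage colony-stimulating factor. There are also 7 macrophage surface receptors, and 4 adaptors and receptors that signal through immunoreceptor tyrosine-based activation motifs (ITAMs). The rest are the 3 chains of complement C1q, 4 phagosome and lysosome effectors, and 6 genes of MHC class II presentation. The study measured polyadenylated RNA in cells of the mouse pituitary sorted by flow cytometry, to find genes that differ between cells mutant for Apc, a scaffold of the beta-catenin destruction complex, and wildtype cells. There were 5 APC-mutant libraries, whose titles also carry the name Lef1 and replicate numbers 1, 2, 4, 5 and 6, and 6 wildtype control libraries with replicate numbers 1 to 6. The labels give neither the Cre driver, promoter or allele behind the mutation, nor the sorting gate, nor the age of the animals, nor whether libraries came from separate animals. P-values therefore speak of the spread among the libraries at hand, part of which may be technical. All mutant libraries carry the name prefix JS, and the wildtype libraries carry ROSAJC (replicates 1 to 4) or ROSAE (replicates 5 and 6), so prefix and genotype cannot be told apart.

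Macrophages develop under the transcription factor PU.1 and survive on signals through CSF1R. They sense opsonised or dying material through Fc, complement and TREM receptors, many of which signal through the adaptors DAP12 and FcRγ, and they digest it in phagolysosomes. Together with dendritic cells and B cells they load peptides onto MHC class II heterodimers with the help of the invariant chain CD74 and the protease cathepsin S, for display to CD4+ T cells. Resident macrophages are a minor population of the normal pituitary.

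Of these genes, 23 had at least 1 promoter in the RefSeq table (GRCm38.p6, 250 bases before to 50 bases after the transcription start). The promoters shown are those of the MHC class II genes H2-Aa and H2-Eb1 and of C1qb and C1qc. H2-Ab1 and C1qa had no promoter in that table. These genes were chosen because the class II chains and C1q differed in which mutant libraries were high, and no link to that difference was tested. MHC class II promoters are known for a CCAAT box in their conserved proximal module, and PU.1 is known to bind purine-rich sites with a GAGGAA core. In the first pair, capitals mark CCAAT or its reverse complement ATTGG. In the second pair, capitals mark GAGGAA or its reverse complement TTCCTC. H2-Aa lies at chr17:34287774-34288073 on the minus strand and H2-Eb1 at chr17:34305617-34305916 on the plus strand. C1qb lies at chr4:136886151-136886450 and C1qc at chr4:136892865-136893164, both on the minus strand.
H2-Aa: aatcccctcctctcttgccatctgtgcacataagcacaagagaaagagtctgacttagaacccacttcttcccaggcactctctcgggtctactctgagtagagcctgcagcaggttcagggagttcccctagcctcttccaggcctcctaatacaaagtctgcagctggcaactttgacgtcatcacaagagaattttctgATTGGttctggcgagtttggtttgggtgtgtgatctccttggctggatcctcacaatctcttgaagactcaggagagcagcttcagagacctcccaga
H2-Eb1: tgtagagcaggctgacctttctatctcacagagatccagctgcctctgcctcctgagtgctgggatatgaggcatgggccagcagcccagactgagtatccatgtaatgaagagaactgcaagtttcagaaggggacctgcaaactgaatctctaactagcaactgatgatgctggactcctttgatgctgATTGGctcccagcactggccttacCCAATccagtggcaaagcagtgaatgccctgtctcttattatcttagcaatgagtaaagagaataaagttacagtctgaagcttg
C1qb: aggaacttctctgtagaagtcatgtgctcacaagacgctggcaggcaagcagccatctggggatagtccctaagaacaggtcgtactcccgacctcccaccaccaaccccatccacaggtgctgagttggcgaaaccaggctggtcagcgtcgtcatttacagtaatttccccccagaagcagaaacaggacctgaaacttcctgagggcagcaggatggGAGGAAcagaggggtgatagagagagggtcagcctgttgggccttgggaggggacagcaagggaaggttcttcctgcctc
C1qc: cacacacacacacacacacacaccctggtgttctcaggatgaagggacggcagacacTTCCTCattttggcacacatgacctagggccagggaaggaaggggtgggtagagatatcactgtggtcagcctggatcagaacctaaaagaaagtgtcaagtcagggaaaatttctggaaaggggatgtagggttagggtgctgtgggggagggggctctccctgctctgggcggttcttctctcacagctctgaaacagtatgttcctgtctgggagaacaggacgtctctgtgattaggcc
The first base of ATTGG lay 48 bases before the start site of H2-Aa and 59 bases before that of H2-Eb1, which also held CCAAT 35 bases before it. GAGGAA began 30 bases before the start of C1qb, and TTCCTC began 193 bases before that of C1qc. CCAAT or ATTGG occurred in 12 of the 28 promoters of the listed genes and in 12289 of all 32851 promoters in the table (37.4%). GAGGAA or TTCCTC occurred in 15 of the 28 and in 9289 of all promoters (28.3%). These matches describe letters in a window and show no bound site.

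Total counts ran from 18082332 to 27280761 in the APC-mutant libraries and from 15740857 to 25414443 in the wildtype libraries. Apc itself was at 37.8 to 45.6 CPM in APC-mutant libraries and 39.3 to 47.4 CPM in wildtype libraries, but counts over the whole gene cannot check a mutation whose position the labels do not give. Levels are CPM, counts relative to the library total, after trimmed mean of M-values (TMM) scaling, given in replicate order (1, 2, 4, 5, 6 for APC-mutant and 1 to 6 for wildtype). Of 20622 tested genes, 12218 (59.2%) were called at an adjusted p under 0.05 by edgeR's quasi-likelihood test, 6341 (30.7%) higher and 5877 (28.5%) lower in APC-mutant libraries. Against that background, 31 of the 32 macrophage and MHC class II genes were called higher, none was called lower, and Cd163 was not called. The median log2 fold change, APC-mutant minus wildtype, was 4.45 over the 32 genes and 0.02 over all tested genes. In 29 of the 32 genes every APC-mutant library lay above every wildtype library, as in 23.0% of all tested genes. The 3 exceptions were Cd163, Mpeg1 and H2-Eb1.

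The summed level of the 32 genes was 880, 4835, 1887, 836 and 3360 CPM in the APC-mutant libraries, against 85.0, 52.0, 79.4, 96.3, 122 and 143 CPM in the wildtype libraries. The lowest APC-mutant sum thus lay well above the highest wildtype sum. The mean was 2359 ± 1722 CPM (SD, n = 5) in APC-mutant and 96.4 ± 32.4 CPM (SD, n = 6) in wildtype libraries. These genes took 0.229% of counts in APC-mutant libraries and 0.00986% in wildtype libraries. In bulk RNA, more macrophages and more of these transcripts per cell cannot be told apart. All 32 genes passed the filter on low counts, but Ptprc, Aif1, Spi1, Itgam, Cybb, Mpeg1 and H2-Aa would not have passed on the wildtype libraries alone. A gene that passes through the high group has to differ, so the counts above include those 7 by construction. Of the other 25 genes all but Cd163 were called higher. The same holds for the marker and pathway lists, where the number of tested genes that would not pass on the wildtype libraries alone is given beside each count they touch. Such genes are described as tested only through their APC-mutant levels, and a few of them needed libraries of both genotypes to pass. APC-mutant libraries 2 and 6, the pair with the highest sums, were also both left out. Then 31 of the 32 genes were called higher, against 5559 of all 21586 tested genes. Their median log2 fold change was 3.21. No overlap was seen in 29 of the 32, and that share was not computed over all tested genes for this setting. With fewer libraries, groups overlap less easily.

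**Figure D1:**
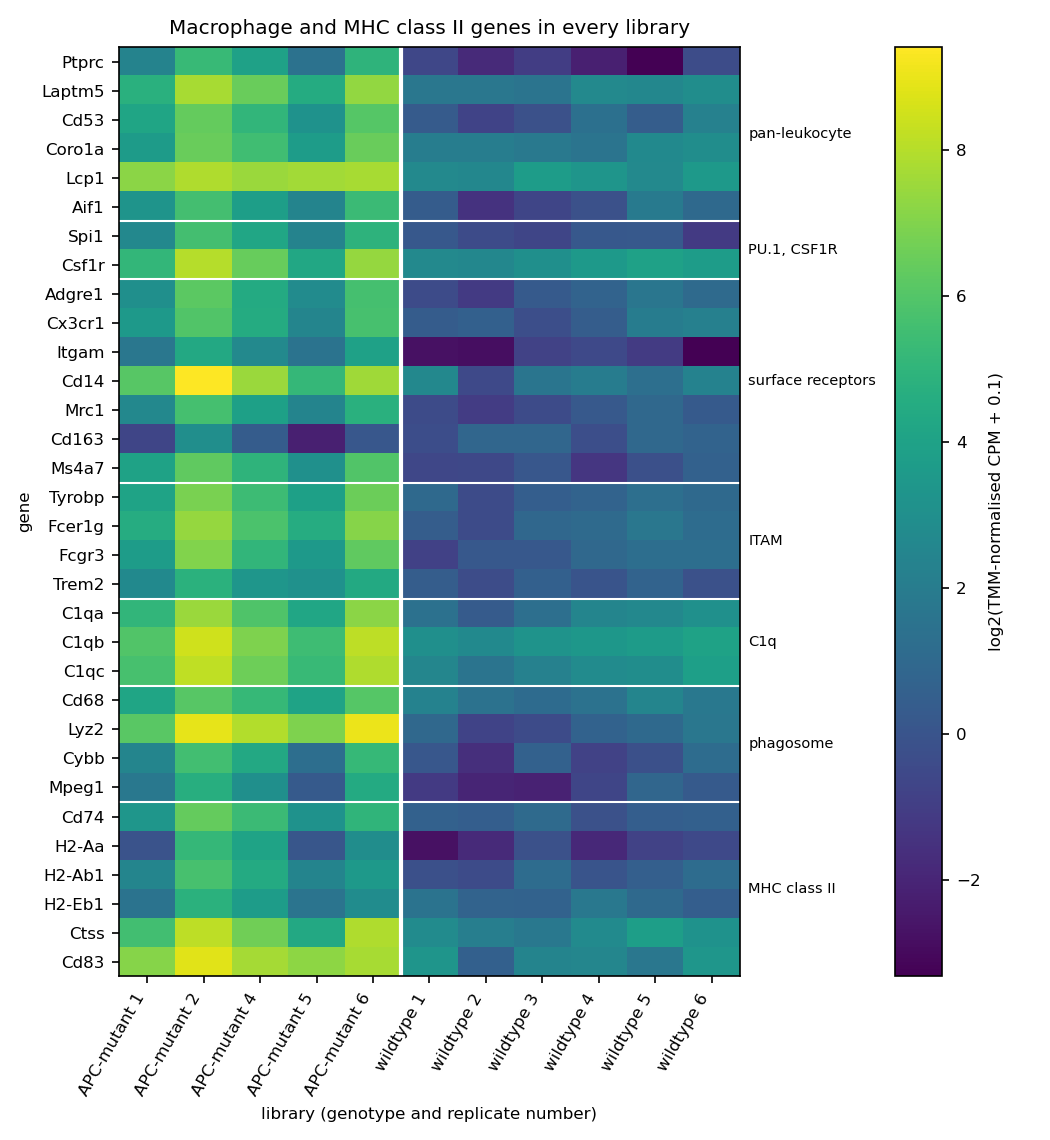
Level of each of the 32 genes (down the page, by role group) in each of the 5 APC-mutant and 6 wildtype libraries (across), as log2 of TMM-normalised CPM plus 0.1. The APC-mutant columns are lighter on average for 31 genes, most of all in replicates 2 and 6, and Cd163 is the exception.

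The 6 genes of the pan-leukocyte group, Aif1 included, were all called higher and separated the genotypes in every library. Ptprc encodes CD45, the membrane phosphatase found on all nucleated blood cells. Ptprc was at 5.01, 37.7, 15.8, 2.71 and 31.1 CPM in APC-mutant libraries, against 0.551, 0.189, 0.396, 0.120, 0 and 0.689 CPM in wildtype libraries. The 0 in wildtype replicate 5 allows up to 0.163 CPM. Mutant replicates 2 and 6 were high and replicates 1 and 5 low, and the difference on the log2 scale was 5.80 ± 0.77 (SE from edgeR, adjusted p = 1.68e-05). Coro1a, an actin-binding coronin of haematopoietic cells, had the smallest difference of the group. It was at 12.7, 92.0, 45.5, 12.9 and 91.7 CPM in APC-mutant libraries and at 4.06, 4.13, 3.43, 2.88, 6.58 and 7.43 CPM in wildtype libraries. Its log2 fold change was 3.42 ± 0.52 (adjusted p = 5.92e-05).

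Lcp1, which encodes the actin-bundling protein L-plastin, had the flattest profile of the 32 genes among the mutant libraries. It was at 145, 240, 180, 200 and 213 CPM in APC-mutant libraries and at 6.26, 5.79, 12.9, 9.73, 6.32 and 11.5 CPM in wildtype libraries. The mutant libraries thus lay within 1.65-fold of each other, against 13.9-fold for Ptprc. Its log2 fold change of 4.49 ± 0.23 had the smallest adjusted p of the 32 genes (1.79e-09). Laptm5, a lysosomal membrane protein, averaged 104 ± 85.1 CPM in APC-mutant and 4.79 ± 1.91 CPM in wildtype libraries. The tetraspanin gene Cd53 averaged 42.3 ± 32.6 CPM in APC-mutant and 1.81 ± 1.56 CPM in wildtype libraries. Aif1, which encodes the microglial and macrophage stain IBA1, averaged 23.9 ± 19.9 CPM in APC-mutant and 1.40 ± 1.26 CPM in wildtype libraries. All 3 had the highest mutant level in replicate 2 and the lowest in replicate 5.

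Spi1 and Csf1r, the gene for PU.1 and the receptor gene that macrophages depend on, were both higher in every APC-mutant library. Spi1 was at 6.13, 49.4, 18.2, 5.11 and 29.6 CPM in APC-mutant libraries and at 1.05, 0.644, 0.528, 1.02, 1.09 and 0.345 CPM in wildtype libraries. Csf1r was at 34.3, 251, 86.3, 19.9 and 167 CPM in APC-mutant libraries and at 6.32, 5.83, 7.92, 11.2, 15.3 and 13 CPM in wildtype libraries. The closest values were mutant replicate 5 and wildtype replicate 5, at 19.9 and 15.3 CPM. The log2 fold changes were 4.79 ± 0.58 for Spi1 (adjusted p = 7.32e-06) and 3.49 ± 0.55 for Csf1r (adjusted p = 8.52e-05). Of the exonic bases of Csf1r, 15.1% also belong to Hmgxb3, and fragments there were counted for both genes.

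Among the 7 surface receptors, 6 were called higher. Cd14, a co-receptor for bacterial lipopolysaccharide, had the largest difference. It was at 69.1, 682, 179, 35.9 and 195 CPM in APC-mutant libraries and at 6.17, 0.606, 3.04, 4.02, 2.44 and 4.87 CPM in wildtype libraries. Replicate 2 stood 3.49 times above replicate 6, the next highest. On the log2 scale the difference was 6.05 ± 0.75 (adjusted p = 8.10e-06), and 5.10 without that library. Cd163, the haemoglobin-haptoglobin scavenger receptor of perivascular and other resident macrophages, did not pass the test. It was found at 0.533, 7.64, 1.22, 0.114 and 1.01 CPM in APC-mutant libraries and at 0.702, 1.74, 1.72, 0.721, 1.87 and 1.57 CPM in wildtype libraries. Outside replicate 2, the highest mutant value lay below 4 of the 6 wildtype values. The log2 fold change of Cd163 was 0.59 ± 0.73 (adjusted p = 0.513) with all libraries and -0.96 (adjusted p = 0.162) without APC-mutant replicate 2.

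The other 5 surface receptors had log2 fold changes between 3.79 and 5.65. Adgre1, which encodes the F4/80 antigen, averaged 32.2 ± 28.8 CPM in APC-mutant and 1.47 ± 1.01 CPM in wildtype libraries. Cx3cr1, the fractalkine receptor gene, averaged 30.8 ± 25.3 CPM in APC-mutant and 2.20 ± 1.66 CPM in wildtype libraries. Mrc1, the gene of the mannose receptor CD206, averaged 20.8 ± 18.8 CPM in APC-mutant and 0.961 ± 0.527 CPM in wildtype libraries. In contrast to Cd163, this marker of resident macrophages separated the genotypes without overlap. Ms4a7 averaged 39.2 ± 30.0 CPM in APC-mutant and 0.777 ± 0.414 CPM in wildtype libraries. Itgam, which encodes CD11b of complement receptor 3, averaged 9.66 ± 7.94 CPM in APC-mutant and 0.252 ± 0.256 CPM in wildtype libraries, and 68.7% of its exonic bases also belong to the predicted gene Gm49368.

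**Figure D2:**
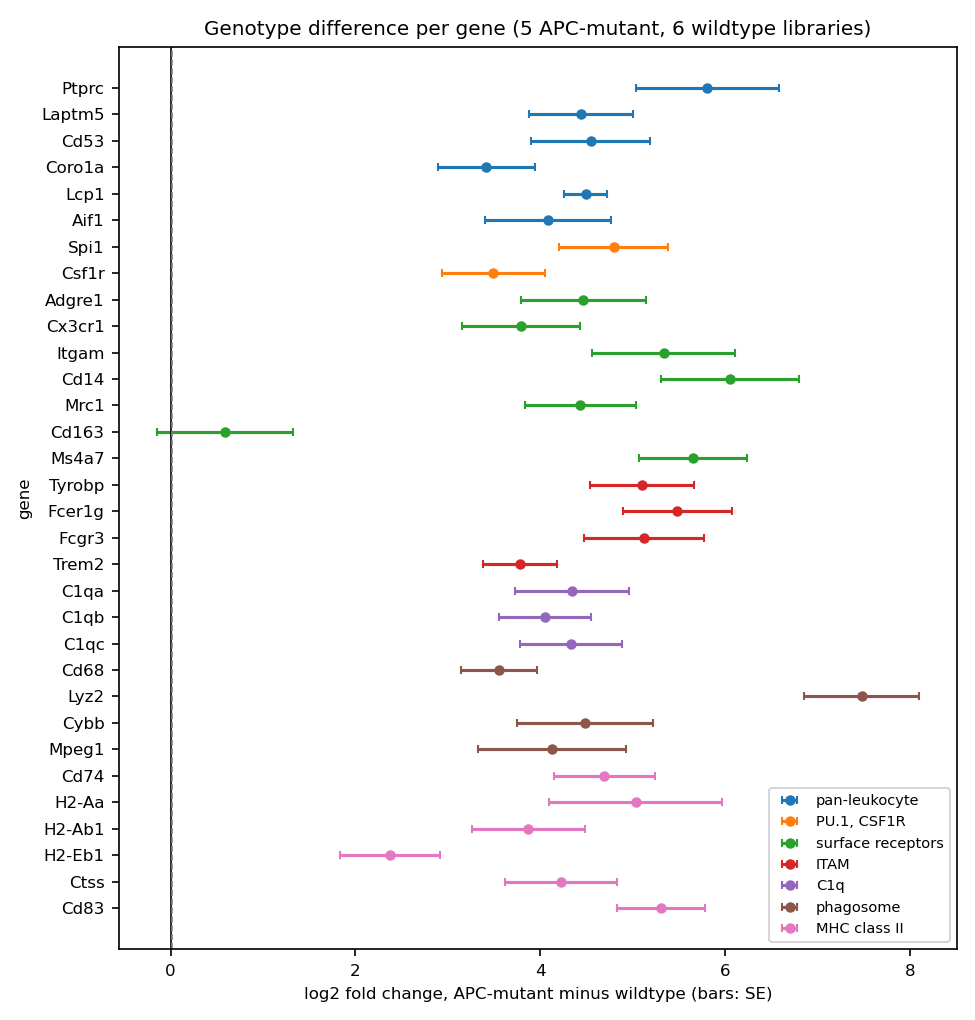
Log2 fold change, APC-mutant minus wildtype, of each of the 32 genes by edgeR's quasi-likelihood fit (points) with its SE (bars), coloured by role group, over 5 APC-mutant and 6 wildtype libraries. Lyz2 lies farthest right at 7.47, and Cd163 is the only gene whose bar crosses 0.

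The 4 ITAM genes were all called higher without overlap. Fcer1g encodes the FcRγ adaptor of Fc receptors. It was at 23.8, 171, 55.7, 23.4 and 135 CPM in APC-mutant libraries and at 1.25, 0.644, 1.78, 1.98, 3.27 and 2.17 CPM in wildtype libraries. Its log2 fold change was 5.48 ± 0.59 (adjusted p = 2.20e-06). Trem2, a lipid-sensing receptor that pairs with DAP12, had the smallest difference here and a flatter mutant profile. It was at 6.61, 28.3, 10.3, 8.62 and 21.1 CPM in APC-mutant libraries and at 1.25, 0.682, 1.39, 0.901, 1.55 and 0.788 CPM in wildtype libraries, with a log2 fold change of 3.78 ± 0.40 (adjusted p = 1.83e-06). Tyrobp, the DAP12 gene, averaged 56.4 ± 45.2 CPM in APC-mutant and 1.65 ± 0.623 CPM in wildtype libraries. Fcgr3, a low-affinity IgG receptor gene, averaged 52.5 ± 49.1 CPM in APC-mutant and 1.51 ± 0.776 CPM in wildtype libraries.

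The 3 C1q chains, which assemble into the recognition molecule of the classical complement pathway, moved together. The genes lie side by side on chromosome 4 between 136607440 and 136626114 (GRCm39), all on the minus strand. C1qb was at 61.6, 359, 124, 44.2 and 280 CPM in APC-mutant libraries and at 8.12, 6.48, 9.17, 10.7, 12.4 and 15.9 CPM in wildtype libraries. C1qa was at 33.6, 181, 59.2, 18.6 and 145 CPM in APC-mutant libraries and at 2.56, 1.17, 2.44, 5.46, 5.96 and 8.37 CPM in wildtype libraries. The log2 fold changes were 4.34 ± 0.62 for C1qa (adjusted p = 3.11e-05), 4.05 ± 0.50 for C1qb (adjusted p = 7.79e-06) and 4.33 ± 0.55 for C1qc (adjusted p = 1.10e-05). While the summed C1q level varied 8.18-fold among the APC-mutant libraries, its composition hardly did. C1qa made up 0.183 to 0.226 of the summed CPM, C1qb 0.416 to 0.443 and C1qc 0.346 to 0.381. In wildtype libraries the same proportions ran from 0.111 to 0.236, from 0.410 to 0.613 and from 0.276 to 0.375, at a summed C1q level of 10.6 to 38.9 CPM.

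Of the phagosome and lysosome genes, Lyz2 had the largest difference among all 32. Lyz2 encodes lysozyme M, secreted by macrophages and neutrophils (chromosome 10, 117113236 to 117118226, GRCm39). It was at 71.0, 489, 243, 123 and 526 CPM in APC-mutant libraries and at 1.91, 0.492, 0.660, 1.5, 1.97 and 3.25 CPM in wildtype libraries. It was the only gene of the 32 highest in mutant replicate 6. The log2 fold change was 7.47 ± 0.62 (adjusted p = 1.58e-07), or 178-fold. Cd68, an endosomal glycoprotein gene used as a macrophage stain, was at 18.1, 69.6, 37.5, 16.8 and 66.0 CPM in APC-mutant libraries and at 4.86, 2.69, 2.11, 2.7, 5.54 and 3.30 CPM in wildtype libraries. Its log2 fold change was the smallest of the group at 3.55 ± 0.41 (adjusted p = 3.99e-06).

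Cybb, the catalytic subunit of the phagocyte NADPH oxidase, averaged 22.7 ± 19.8 CPM in APC-mutant and 1.02 ± 0.704 CPM in wildtype libraries. Mpeg1, which encodes the pore-forming protein perforin-2, was at 3.36, 25.2, 8.02, 1.11 and 22.3 CPM in APC-mutant libraries and at 0.351, 0.151, 0.132, 0.540, 1.76 and 1.13 CPM in wildtype libraries. Mutant replicate 5 lay below wildtype replicates 5 and 6. The log2 fold change of Mpeg1 was 4.13 ± 0.80 (adjusted p = 4.79e-04) with all wildtype libraries and 3.06 (adjusted p = 0.0551) against the 2 ROSAE libraries alone.

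All 6 MHC class II presentation genes were called higher, with 1 of them (H2-Aa) tested only through its APC-mutant levels. Cd83, a stabiliser of surface MHC class II, had the largest difference. It was at 136, 451, 205, 151 and 218 CPM in APC-mutant libraries and at 9.72, 1.40, 5.21, 5.64, 3.21 and 10.2 CPM in wildtype libraries, with a log2 fold change of 5.30 ± 0.47 (adjusted p = 3.41e-07). H2-Eb1, the beta chain of I-E, had the smallest of the 31 called differences. It was at 2.82, 27.9, 12.9, 2.86 and 7.31 CPM in APC-mutant libraries and at 2.81, 1.55, 1.52, 3.36, 1.92 and 1.28 CPM in wildtype libraries. Mutant replicates 1 and 5 therefore lay at the upper wildtype values. The log2 fold change was 2.37 ± 0.54 (adjusted p = 0.00177), and 1.64 (adjusted p = 0.00622) without APC-mutant replicate 2.

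H2-Aa, the alpha chain of I-A, was at 0.852, 35.2, 16.5, 0.954 and 7.41 CPM in APC-mutant libraries and at 0.0501, 0.189, 0.792, 0.180, 0.466 and 0.591 CPM in wildtype libraries. The gap between mutant replicate 1 and wildtype replicate 3 was small, and the log2 fold change was 5.03 ± 0.94 (adjusted p = 3.44e-04). H2-Ab1, the I-A beta chain, was at 5.49, 52.9, 21.7, 5.23 and 11.3 CPM in APC-mutant libraries and at 0.752, 0.644, 2.18, 0.901, 1.35 and 2.17 CPM in wildtype libraries. Cd74 was at 10.1, 84.0, 40.6, 8.93 and 32.7 CPM in APC-mutant libraries and at 1.45, 1.29, 1.98, 0.780, 1.30 and 1.38 CPM in wildtype libraries. In these 4 genes replicate 4 exceeded replicate 6, the reverse of the C1q genes. Ctss, the cathepsin S gene, followed the C1q order, at 46.8, 287, 99.1, 20.8 and 236 CPM in APC-mutant libraries and 6.92, 4.24, 3.37, 6.66, 14 and 8.91 CPM in wildtype libraries. Without APC-mutant replicate 2, the fold changes of 8 genes moved by more than 1.5 times, all downward. These were Cd163 and Cd14 (values given), Mrc1 (log2 fold change 3.80), Fcgr3 (4.50), Cd74 (4.08), H2-Aa (4.10), H2-Ab1 (3.05) and H2-Eb1 (1.64). No other single library moved any of the 32 by as much.

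On the TPM scale, which divides counts by all annotated exonic bases of a gene and rescales each library to a common total, the order of the genes differed between the genotypes. In APC-mutant libraries Lyz2 was highest at 517 ± 364 TPM, before C1qb at 375 ± 299 TPM and Cd14 at 318 ± 360 TPM. Ctss (239 ± 202 TPM), Fcer1g (220 ± 180 TPM), Cd83 (214 ± 119 TPM), Tyrobp (199 ± 158 TPM), C1qa (198 ± 161 TPM) and C1qc (174 ± 137 TPM) came next. Neighbours in that order did not differ beyond their spread. The lowest were Ptprc at 2.37 ± 1.98 TPM and Cd163 at 0.917 ± 1.37 TPM. In wildtype libraries C1qb led at 19.6 ± 6.93 TPM, followed by Ctss at 11.2 ± 6.27 TPM, and Lyz2 ranked 13 at 2.54 ± 1.64 TPM.

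Among the APC-mutant libraries the genes moved together. Replicate 2 was the highest library for 31 of the 32 genes, against 19.5% of all tested genes. Replicates 2 and 6 were the highest pair for 27 of the 32 (84.4%), against 9.80% of 19964 tested genes. Those 19964 are the tested genes above 0 in every APC-mutant library. Replicates 1 and 5 were the lowest pair for 31 of the 32 (96.9%), against 10.3% of the 19964, with Lcp1 as the exception. The 5 genes in which replicate 4 displaced replicate 6 from the top pair were Cd74, H2-Aa, H2-Ab1, H2-Eb1 and Cd163. The highest library was at least 5 times the lowest for 28 of the 32 genes (87.5%), against 7.87% of the same 19964 genes. The exceptions were Lcp1 (1.65-fold), Cd83 (3.33-fold), Cd68 (4.14-fold) and Trem2 (4.28-fold). At the other end, H2-Aa spanned 41.3-fold and Cd163 66.7-fold. These libraries share their scaling factors, so the genes are not independent counts of the same event. With library totals in place of TMM scaling, replicate 2 was again the highest for 31 genes.

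**Figure D3:**
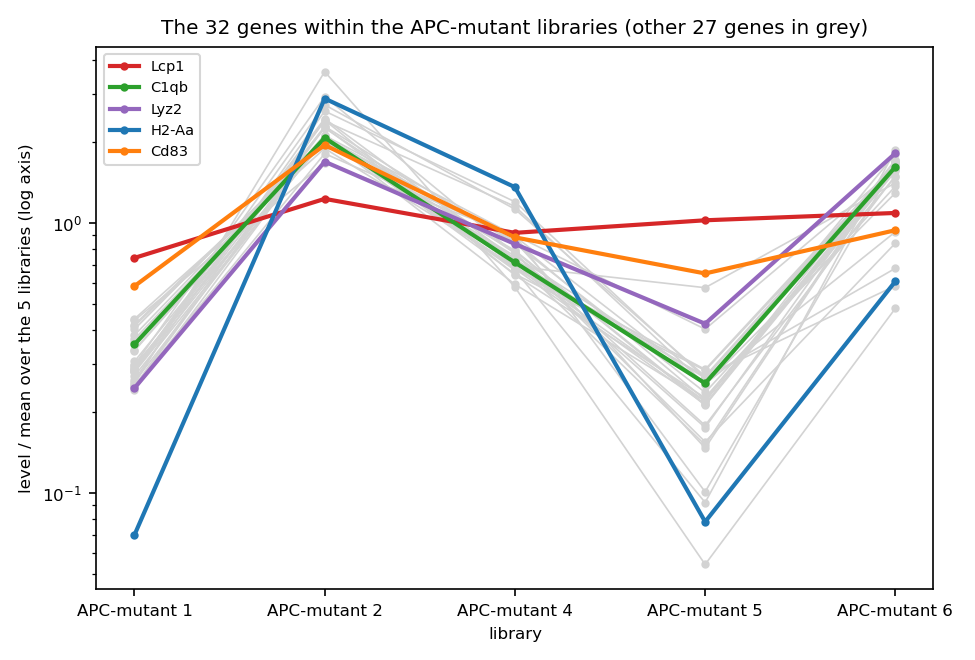
Level of each gene in the 5 APC-mutant libraries, divided by its mean over those libraries (log axis), with 5 genes coloured and the other 27 in grey. Most lines peak at replicates 2 and 6 and dip at replicates 1 and 5, Lcp1 stays nearly flat, and H2-Aa is higher at replicate 4 than at replicate 6.

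In the wildtype libraries the pattern was weaker and lay along the name prefix. ROSAE replicates 5 and 6 were highest for 13 and 12 of the 32 genes, against 18.5% and 15.9% of all tested genes. Wildtype replicate 2 was lowest for 17 of the 32, against 22.2%. The summed level was 122 and 143 CPM in the 2 ROSAE libraries and 52.0 to 96.3 CPM in the 4 ROSAJC libraries.

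To describe composition apart from amount, each gene was divided by the summed C1q level of its library, a denominator chosen after the values were seen. Among the APC-mutant libraries 16 of the other 29 genes then varied less than 2-fold. The count depends on the denominator, with 3 of 27 relative to 5 pan-leukocyte genes and 14 of 28 relative to 4 of them without Lcp1. The 5 were Ptprc, Laptm5, Cd53, Coro1a and Lcp1, and Aif1 was left out. Relative to C1q, the 13 that varied more were Ptprc, Lcp1, Cd14, Cd163, Trem2, Lyz2, Cybb, Mpeg1, Cd74, H2-Aa, H2-Ab1, H2-Eb1 and Cd83. For 24 of the 29 genes the ratios of the genotypes overlapped. Neither this count nor that of genes varying less than 2-fold was computed over all tested genes, with any of these denominators. Whether either count is particular to these genes was therefore not tested. Lyz2 stood at 0.479, 0.589, 0.866, 1.21 and 0.797 of the C1q sum in APC-mutant libraries, against 0.116, 0.0466, 0.0405, 0.0648, 0.0760 and 0.0835 in wildtype libraries. The mean ratio of Lyz2 was 11.1 times higher in APC-mutant libraries, with no overlap. Fcer1g (0.161 to 0.231 in APC-mutant, 0.0557 to 0.126 in wildtype) and Ms4a7 (0.0823 to 0.111 in APC-mutant, 0.0130 to 0.0607 in wildtype) were also above without overlap.

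Csf1r and Cd163 lay below. Csf1r was at 0.196 to 0.308 of the C1q sum in APC-mutant libraries and at 0.334 to 0.592 in wildtype libraries. Cd163 was at 0.00113 to 0.00920 in APC-mutant libraries and at 0.0311 to 0.165 in wildtype libraries. The directions of Lyz2, Csf1r and Cd163 without overlap were the same with 5 pan-leukocyte genes as the denominator, whereas Fcer1g and Ms4a7 overlapped there. Relative to the 4 pan-leukocyte genes without Lcp1, Lyz2, Fcer1g, Ms4a7, Tyrobp and Fcgr3 lay above and Csf1r and Cd163 below without overlap. The summed level of Cd74, H2-Aa, H2-Ab1 and H2-Eb1 was 19.2, 200, 91.7, 18 and 58.7 CPM in APC-mutant libraries and 5.06, 3.67, 6.47, 5.22, 5.03 and 5.42 CPM in wildtype libraries. As a ratio to C1q it was 0.130, 0.241, 0.328, 0.177 and 0.0890 in APC-mutant libraries and 0.309, 0.348, 0.397, 0.225, 0.194 and 0.139 in wildtype libraries. These ratios overlapped between genotypes.

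**Figure D4:**
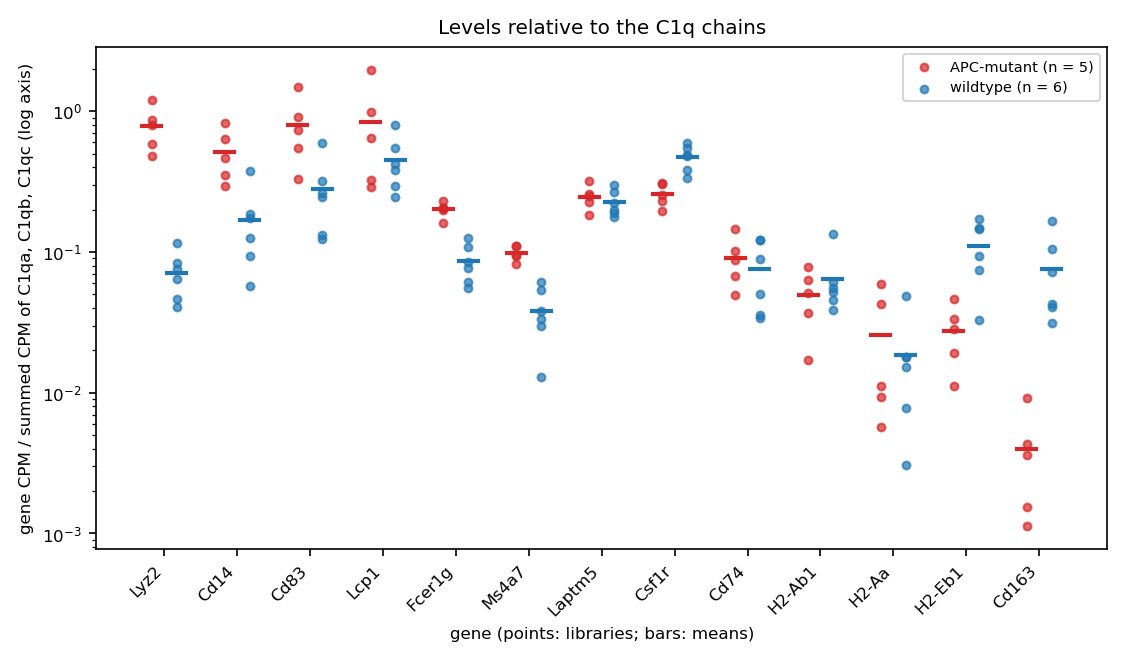
CPM of 13 genes divided by the summed CPM of C1qa, C1qb and C1qc (log axis), with 5 APC-mutant libraries (left of each pair) and 6 wildtype libraries as points and their means as bars. Lyz2, Fcer1g and Ms4a7 lie higher and Csf1r and Cd163 lower in APC-mutant libraries without overlap.

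Of 19 further genes that regulate or assist MHC class II 15 were tested, and 5 were higher, near the 30.7% of all tested genes, and 2 were lower. Ciita, the master activator of class II transcription, was at 0.509 to 1.52 CPM in APC-mutant and 0.246 to 1.86 CPM in wildtype libraries, with a log2 fold change of 0.02 ± 0.49 (adjusted p = 0.976). The co-stimulatory receptor gene Cd40 was higher by 5.83 ± 0.33 and the cathepsin H gene Ctsh by 2.85 ± 0.32 on the log2 scale. Cd40 lay within 64.3 to 75.4 CPM in the APC-mutant libraries, without the rise in replicates 2 and 6, and within 0.415 to 2.28 CPM in wildtype libraries. The co-stimulatory ligand genes Cd86 (4.47 ± 0.72) and Cd80 (3.53 ± 0.68), both tested only through their APC-mutant levels, and the peptide-exchange gene H2-DMb1 (1.14 ± 0.33) were higher too. Rfxap, a subunit of the RFX complex that binds class II promoters, was lower (-0.54 ± 0.12), as was Marchf1, a ubiquitin ligase for class II (-1.53 ± 0.45). Without wildtype replicate 2, 4 genes of this list were lower.

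Of 16 tested signalling partners of the Fc and ITAM receptors, 9 were tested only through their APC-mutant levels. Of the other 7, 6 were higher and none was lower. The kinase genes Syk (6.12 ± 0.20) and Lyn (3.90 ± 0.15) had the smallest p-values. Syk lay between 66.5 and 93.8 CPM in APC-mutant libraries, lowest in replicate 2, and between 0.540 and 1.45 CPM in wildtype libraries. Plcg2 was not called. Of 8 complement genes outside C1q that pass on wildtype libraries alone, 6 were higher and none lower, and 4 more were tested only through their APC-mutant levels. The higher genes included the C1 inhibitor gene Serping1 (3.18 ± 0.34) and the anaphylatoxin receptor gene C3ar1 (4.79 ± 0.53). C3 was at 0.305 to 4.31 CPM in APC-mutant and 1.33 to 6.06 CPM in wildtype libraries and was not called. Of 12 tested myeloid transcription factors 10 were higher, 2 of them tested only through their APC-mutant levels, including Mef2c (3.02 ± 0.14), and Bhlhe41 was lower (-2.57 ± 0.30). Among 9 tested growth factors and attractants 6 were higher, 3 of them tested only through their APC-mutant levels, and 1 was lower. Csf1, a ligand of CSF1R, was higher (2.04 ± 0.25), and the other ligand gene, Il34, was not called (0.08 ± 0.43). Tgfb1 was higher (4.77 ± 0.27), and Cx3cl1, the ligand of CX3CR1, was lower (-0.86 ± 0.17). Among the APC-mutant libraries Lyn varied 1.55-fold, Mef2c 1.25-fold and Tgfb1 1.14-fold, against a median of 9.63-fold over the 32 genes. Serping1 varied 5.24-fold there and C3ar1 8.37-fold. Which cells these transcripts came from was not tested.

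Lists that mark kinds of macrophage and related myeloid cells gave mixed counts. Of 11 tested microglia markers 8 were higher, 3 of them tested only through their APC-mutant levels, and 2 were lower. The list is not specific, since Sparc alone held most of its summed level. Sparc was at 4403 to 5385 CPM in APC-mutant libraries and 210 to 656 CPM in wildtype libraries. Tmem119 was higher (3.91 ± 0.33), and Slc2a5 (-2.11 ± 0.31) and Sall1 (-0.87 ± 0.27) were lower. Levels of Tmem119 varied 1.8-fold among the APC-mutant libraries, highest in replicate 6. Of 10 tested markers of border and resident macrophages 8 were higher, 4 of them tested only through their APC-mutant levels, and none was lower. First by p were Cbr2 (4.83 ± 0.27) and Pf4 (5.48 ± 0.51), and 5 were called without wildtype replicate 2. Cbr2 was at 131.5, 78.9, 70.2, 185.6 and 118.8 CPM in APC-mutant libraries, highest in replicate 5, where most of the 32 genes were lowest. Pf4 was highest in replicate 2, at 97.4 CPM, and lowest in replicate 1, at 22.4 CPM. Of the 8 tested monocyte and dendritic cell markers, 6 were tested only through their APC-mutant levels, among them Plac8 (4.75 ± 0.52). The other 2 were both higher, Batf3 by 2.94 ± 0.35 and Zbtb46 by 3.77 ± 0.21. Zbtb46 was at 38.1 to 62.8 CPM in APC-mutant and 1.97 to 4.56 CPM in wildtype libraries. Among the APC-mutant libraries Zbtb46 varied 1.65-fold and Batf3 4.3-fold, against a median of 9.63-fold over the 32 genes. Flt3, Cd209a, Itgax and Cd300e were too low to test.

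Markers of other cell types differed between the same groups, and their part in the results above was not tested. Neutrophil markers were summed at 69.8, 88.4, 153, 23.3 and 386 CPM in APC-mutant libraries and at 3.07 to 7.21 CPM in wildtype libraries. The highest sum was in replicate 6, as for Lyz2, but Lyz2 was nearly as high in replicate 2. The lowest sum was in replicate 5, whereas Lyz2 was lowest in replicate 1. The 4 called higher, among them S100a9 (6.11 ± 0.71) and Csf3r (3.87 ± 0.49), were tested only through their APC-mutant levels, Mmp8 was not called, and Ly6g was at most 0.356 CPM in any library. Without APC-mutant replicate 2, Mmp8 was called lower. Mast cell and basophil markers were summed at 92.0, 1695, 589, 375 and 1262 CPM in APC-mutant libraries and at 20.2 to 40.0 CPM in wildtype libraries. Hdc alone held nearly all of the sum in APC-mutant replicate 1 (91.1 CPM) and in every wildtype library (20.2 to 39.6 CPM). Only Hdc (2.33 ± 0.23) and Prss34 (5.17 ± 1.02) of 10 passed the filter on low counts, and both were higher, Prss34 with too few counts to pass in either genotype alone. The count was 7 without APC-mutant replicate 1 and 1 without wildtype replicate 2. The mast cell tryptase gene Tpsb2, named after its values were seen, was at 0.320, 498, 167, 68.5 and 337 CPM in APC-mutant libraries and at most 0.0660 CPM in wildtype libraries. T and NK cell markers were summed at 21.6 to 33.7 CPM in APC-mutant and 11.4 to 15.7 CPM in wildtype libraries. Of 4 tested, Zap70 (4.04 ± 0.51) and Cd5 (4.59 ± 0.73) were higher, both tested only through their APC-mutant levels, and Cd3d had no count in any library. B cell markers were summed at 4.12 to 12.4 CPM in APC-mutant and 14.4 to 39.7 CPM in wildtype libraries, and Cd79a (-3.52 ± 0.34) and Cd79b (-1.31 ± 0.38) were lower. Cd22 entered the test and was called higher when APC-mutant replicate 1 or 5 was left out.

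Outside the blood lineages, all 12 endothelial markers were higher, 1 of them tested only through its APC-mutant levels, with sums of 5060 to 7573 CPM in APC-mutant and 17.9 to 117 CPM in wildtype libraries. These sums stayed within 1.5-fold among the APC-mutant libraries, against 1.65-fold for Lcp1 and a median of 9.63-fold over the 32 genes. Kdr (6.59 ± 0.37) and Pecam1 (7.17 ± 0.43) were first by p. All 11 tested mesenchymal and pericyte markers were higher, among them Dcn (3.53 ± 0.19) and Col1a1 (4.37 ± 0.38), with sums of 798 to 3576 CPM in APC-mutant and 130 to 297 CPM in wildtype libraries. Of 10 tested erythroid and platelet markers 8 were higher, 5 of them tested only through their APC-mutant levels, including Alas2 (6.08 ± 0.37), with sums of 1854 to 3504 CPM in APC-mutant and 13.5 to 46.3 CPM in wildtype libraries. All 15 endocrine lineage genes were lower, 9 of them not passing the filter on APC-mutant libraries alone, with sums of 163 to 1461 CPM in APC-mutant and 59292 to 94539 CPM in wildtype libraries. Gh was at 1.32 to 4.26 CPM in APC-mutant libraries and 25743 to 65876 CPM in wildtype libraries, with a log2 fold change of -14.47 ± 0.54, and Neurod4 was second by p (-9.32 ± 0.38). Of 13 pituitary stem cell markers 5 were higher and 3 lower, near the 30.7% and 28.5% of all tested genes. Among the 5 higher, 1 would not pass the filter on wildtype libraries alone. The sums of this list were 1327 to 1768 CPM in APC-mutant and 1188 to 1593 CPM in wildtype libraries. With a library left out, 2 to 5 were higher. The lower ones included Aldh1a2 (-2.95 ± 0.20) and Cyp2f2 (-3.56 ± 0.32), the latter not passing the filter on APC-mutant libraries alone. Of 10 dissociation stress genes 5 were higher, led by Hspa1a (2.99 ± 0.46) and Hspa1b (3.0 ± 0.53), near-identical copies that can exchange fragments, and 3 without APC-mutant replicate 1, 4 or 6. Their sums were 4747 to 10864 CPM in APC-mutant and 1409 to 7422 CPM in wildtype libraries.

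**Figure D5:**
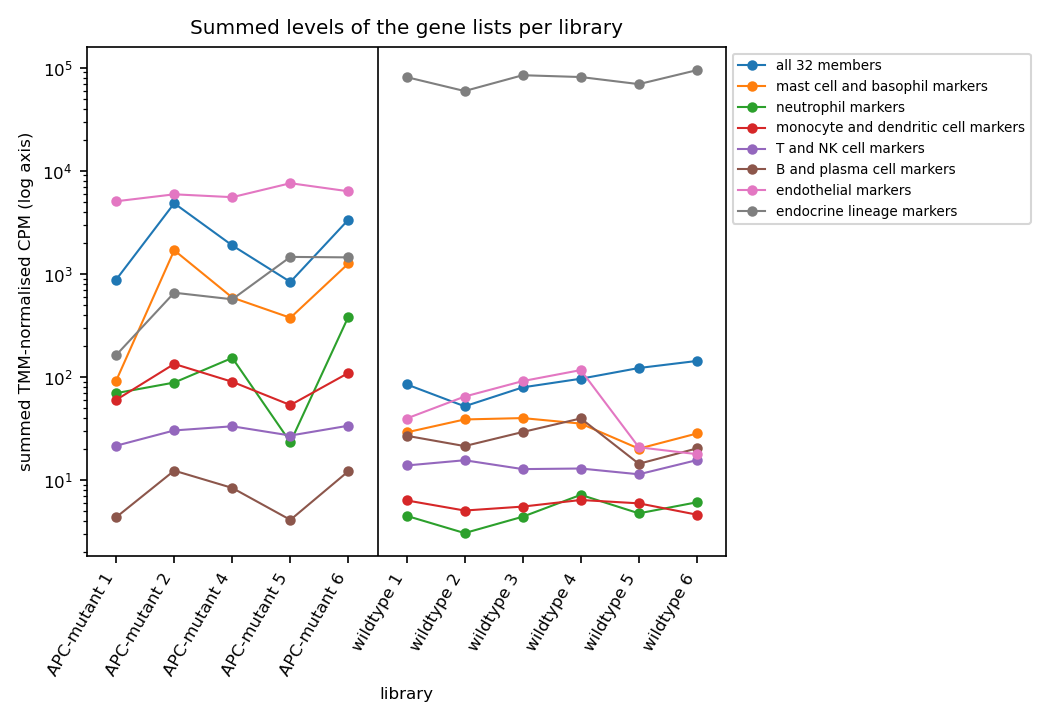
Summed TMM-normalised CPM (log axis) of the 32 genes and of 7 marker lists in each of the 5 APC-mutant libraries (left) and 6 wildtype libraries (right). The 32 genes and the mast cell markers are highest in APC-mutant replicates 2 and 6. In APC-mutant replicate 1 and in the wildtype libraries the mast cell sum is nearly all Hdc. Endothelial markers are nearly level among the APC-mutant libraries, and endocrine lineage markers are higher in wildtype libraries.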

How the data were processed

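RNA from 5 APC-mutant and 6 wildtype samples was measured by bulk sequencing. The deposited values are raw counts per gene. Per the file headers they were made with featureCounts 2.0.1 over GENCODE M33 on GRCm39, counting read pairs without strand, for every overlapping gene, and without pairs that mapped to several places. Trim Galore 0.6.5, STAR 2.7.9a and DESeq2 are named in the submitters' processing notes. Genes that share exons therefore share counts. For the macrophage and MHC class II genes, overlaps of at least 10% of exonic bases are given with the gene. Among the other genes named, such overlaps were 19% for Bhlhe41 and Hspa1a, 15.5% for Alas2, 15% for Mpo and 13.5% for Cyp2f2. Some list members that are counted or summed but not named also overlap by at least 10%. Identifiers were matched to symbols for 51948 of 56941 genes (91.2%).

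Totals ran from 15740857 to 27280761 counts, and a count of 0 allows up to 3 counts (0.110 to 0.191 CPM), for counting error only. Libraries of a genotype differed by more than sampling noise in every pair (chi-square per degree of freedom 13.3 to 84.3).

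The genotype term was fitted by edgeR 4.0.16 under R 4.3.3 (filterByExpr, TMM, quasi-likelihood F test), with Benjamini-Hochberg adjustment over all genes and a threshold of 0.05. SE was derived from the log2 fold change and its F statistic. The fit was tested on simulated data. DESeq2 1.42.0, limma 3.58.1, other scalings and filters, subsets of wildtype libraries and each library left out were alternatives.

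The 32 genes, the 18 other lists (234 genes, of which C5 was not matched) and the tests were chosen with earlier results of these data known. Per-library values are given for the largest and smallest difference in each role group, genes not called, and the highest per-length level. Per-library values of Lcp1, Mpeg1, H2-Aa, H2-Ab1, Cd74 and Ctss, and the values of Tpsb2, Cd22, Mmp8, Ciita, C3 and Il34, were added after they were seen. From each other list the 2 smallest p-values and members called against the list median are named, except for some that are not reported here. Promoters are from RefSeq on GRCm38.p6, and protein sequences were not used here.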

Additional observations from a re-analysis of the deposited data

Results flagged for a closer look

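Within the APC-mutant libraries, 3 genes had 1 library far from the others relative to the range of the group, by Dixon's 95% criterion. Cd14 was at 682 CPM in replicate 2, and the next highest library was at 195 CPM. Cd163 was at 7.64 CPM in replicate 2, with the next at 1.22 CPM. Cd83 was at 451 CPM in replicate 2, with the next at 218 CPM. The criterion was applied to 80 groups of 5 or 6 libraries, and chance flags about 1 in 20 of them, or 4 here, so a count of 3 is not a pattern by itself. All 3 lie in the library with the highest summed level of the 32 genes.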

How the results depend on the processing

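With 21 alternatives, 30 to 31 of the 32 genes were called higher and 0 lower, while 10577 to 13867 of all genes were called (12218 as reported). At an unadjusted p under 0.05 none of the 32 was lower either. The median log2 fold change of the 32 genes (4.45) ranged from 3.96 to 4.69 with 1 library left out, and was 3.21 with APC-mutant libraries 2 and 6 both left out, an alternative added after seeing the data. Cd163 reversed, without being called, to -0.62 by limma-voom, -0.20 with the replicate block, -0.96 without APC-mutant replicate 2 (its other values with 1 library left out reached 0.91) and -1.18 without libraries 2 and 6. The cause was not tested beyond those values. Mpeg1 missed the threshold against the ROSAE libraries alone. Apart from Cd163, 650 of 651 gene results kept direction and side of the threshold.

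Same-numbered libraries of the genotypes did not deviate together (correlations -0.151 to 0.0492, none best with its own number), so the numbers are not treated as pairs. With the replicate block 10577 genes and 31 of the 32 were called.

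Of the other listed genes 119 were higher and 26 lower, with 111 to 132 and 26 to 29 when 1 library was left out. Over all tested genes the shares were 30.7% higher and 28.5% lower. The 119 include genes tested only through their APC-mutant levels, as given list by list above. The 26 include genes that would not pass the filter on APC-mutant libraries alone. Of 756 list counts under alternatives, 713 were within 1.5 times. Without a filter on low counts, 10 mast cell, 10 neutrophil and 7 T and NK cell markers were higher. Of the microglia markers 5 were called higher (8 as reported) with the replicate block, with the ROSAE libraries alone, or without libraries 2 and 6. Relative to 5 pan-leukocyte genes, Lyz2 averaged 0.632 in APC-mutant libraries, and 1.53 relative to 4 without Lcp1. Depth limits the wildtype values, where Ptprc, Itgam and H2-Aa rest on 38, 26 and 42 counts over 6 libraries.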

Other observations

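Genes of neutrophil granules and of mast cells that did not pass the filter on low counts had unlike profiles among the APC-mutant libraries, and they were named after their values were seen. The myeloperoxidase gene Mpo was at 15.1, 6.57, 62.8, 0.0382 and 55.4 CPM in APC-mutant replicates 1, 2, 4, 5 and 6 and had no count in any wildtype library. Ngp, a secondary granule gene, was at 0.160, 6.16, 0.885, 2.10 and 52.2 CPM in APC-mutant libraries and at most 0.151 CPM in wildtype libraries. Mast cell carboxypeptidase Cpa3 was at 0.213, 423, 123, 59.5 and 298 CPM in APC-mutant libraries and had no count in wildtype libraries. The 2 libraries with the lowest levels of the 32 macrophage and MHC class II genes, replicates 1 and 5, thus differed in Cpa3. The order of the summed mast cell markers among the APC-mutant libraries (replicates 2, 6, 4, 5, 1) differed from that of the 32 genes (2, 6, 4, 1, 5) in the last pair.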
